A study of Mus musculus with 6 samples.

Results

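Periostin-expressing collagen cells were taken from single-cell RNA libraries of mouse mammary tumours at 4 stages. Cells were filtered on depth (500 unique molecular identifiers or more, UMIs, each standing for 1 captured RNA molecule), on detected genes (200 or more) and on mitochondrial UMIs (20% at the most). Members were then chosen by their own raw counts: at least 10 UMIs of Col1a1, Col1a2 and Col3a1 together, at least 1 of Postn, and 0 of Pi16 plus Clec3b, of Ptprc and of Epcam. The rule found 108 cells among 18293 filtered stage cells, 12 in Primary, 33 in Dormant, 61 in LT_DT and 2 in Recurrent. It found none among 2122 IgG and 2729 Jag1 cells of the antibody libraries, which used another kit version. Collagen, Postn, Pi16 and Clec3b levels are therefore given below as a description.

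All libraries came from mammary gland tissue of strain FVB (FVB.rGH-Luc-GFP) that carried transplanted tumours, 1 library per group. The genotype was labelled MMTV-Wnt1/iFGRR2 for Primary, MMTV-Wnt1/iFGRR1 for Dormant, MMTV-Wnt1/iFGRR4 for LT_DT and MMTV-Wnt1/iFGRR3 for Recurrent, with MMTV-Wnt1/iFGRR5 for IgG and MMTV-Wnt1/iFGRR6 for Jag1. The number at the end differed in each library and its meaning was not given, nor was LT_DT spelled out. In this model a mammary tumour virus promoter drives Wnt1 in mammary epithelium, and the B/B homodimerizer, a dimerizer drug, was injected after transplantation. Dormant, Recurrent, LT_DT, IgG and Jag1 mice received NVP-BGJ398, an FGF receptor inhibitor, by gavage for 14 days and then no drug for 14 days, after which tissue was collected or mice were kept for regrowth or antibodies. The antibodies were a control IgG or anti-Jagged-1, each at 15 mg/kg weekly for 5 weeks, with collection 1 week later. The LT_DT mice were the oldest, at 32 to 34 weeks, followed by Recurrent at 20 to 22, both antibody groups at 16, Dormant at 10 to 12 and Primary at 8 to 10. Stage, age, mouse and library therefore cannot be told apart, no test between groups was possible, and every 95% interval covers counting error only.

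Periostin, encoded by Postn, is a secreted matricellular protein that binds collagen and integrins and helps collagen fibres assemble and crosslink. It is made by fibroblasts of growing or injured connective tissue and by cancer-associated fibroblasts, and in mouse models stromal periostin has been tied to the growth of tumour cells in new sites. Fibroblasts around vessels and in fascia, marked by Pi16 and Clec3b, form a separate adventitial state that is thought to serve as a reservoir for other fibroblasts. Pericytes, the contractile cells wrapped around small vessels, also make collagen and can express Postn.

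The promoters of 3 genes are shown because Postn defines the cells and because Cxcl10 and Hspa1a stand for an interferon group and a heat shock group that set Dormant members apart from LT_DT members below. Each is 250 bases before a RefSeq start site on GRCm38.p6, the same primary assembly as mm10, written 5' to 3' on the gene's strand. Capitals mark the motif match named with each sequence, and the interferon-type repeat is GAAA, 2 bases of any kind and GAAA again.
Postn, chr3:54360857-54361106, plus strand, TATAAA in capitals: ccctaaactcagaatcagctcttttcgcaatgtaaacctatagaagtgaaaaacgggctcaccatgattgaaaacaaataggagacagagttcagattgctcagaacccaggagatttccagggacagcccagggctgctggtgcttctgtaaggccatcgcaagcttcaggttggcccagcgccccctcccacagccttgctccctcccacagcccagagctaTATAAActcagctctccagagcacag
Cxcl10, chr5:92348890-92349139, minus strand, interferon-type repeat in capitals: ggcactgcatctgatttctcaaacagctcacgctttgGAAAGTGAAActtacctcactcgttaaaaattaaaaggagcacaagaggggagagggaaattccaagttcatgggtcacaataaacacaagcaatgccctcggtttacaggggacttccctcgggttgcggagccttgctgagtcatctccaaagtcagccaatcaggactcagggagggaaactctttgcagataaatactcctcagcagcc
Hspa1a, chr17:34972157-34972406, minus strand, CCAAT in capitals (on the other strand): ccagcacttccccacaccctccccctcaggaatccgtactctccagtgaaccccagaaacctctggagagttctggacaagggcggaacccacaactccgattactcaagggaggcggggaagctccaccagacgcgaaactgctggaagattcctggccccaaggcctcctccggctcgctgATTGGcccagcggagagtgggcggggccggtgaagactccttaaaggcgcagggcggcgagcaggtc
The match lay 26 bases before the start site in Postn, 213 before it in Cxcl10 and 67 before it in Hspa1a. Postn has another RefSeq start site, and its window, chr3:54359017-54359266, had 0 TATAAA matches. Both strands were searched. TATAAA occurred in 12.4% of 32851 windows of the same kind, the interferon-type repeat in 2.98% and CCAAT in 33.8%. A strict heat shock pattern, written as GAA, TTC and GAA with 2 bases of any kind between each, was found in 0.466% of windows. It did not occur in that of Hspa1a, and shorter or imperfect forms of the element were not searched. Each match is a description of letters only.

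Members made up about 1% of the Dormant and LT_DT libraries and less of the Primary and Recurrent libraries. The share was 1.01% of 3276 filtered cells in Dormant (exact binomial interval 0.694 to 1.41%) and 1.02% of 6004 in LT_DT (0.778 to 1.30%). It was 0.277% of 4328 in Primary (0.143 to 0.484%) and 0.0427% of 4685 in Recurrent (0.00517 to 0.154%). Counts of 0 in IgG and Jag1 allowed shares of up to 0.174% and 0.135% by the same interval. The Dormant and LT_DT intervals overlapped almost wholly, and the Primary and Recurrent intervals lay below both. The sort kept live cells after freezing and thawing, which can set the share of any type.

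Measured against all cells with at least 10 collagen UMIs, the order was different. Members were 12 of 20 collagen cells in Primary (60.0%), 33 of 235 in Dormant (14.0%, 9.87 to 19.2%), 61 of 2640 in LT_DT (2.31%, 1.77 to 2.96%) and 2 of 90 in Recurrent (2.22%). The other collagen cells of LT_DT were nearly all Pi16- or Clec3b-positive, 2545 cells, of which 1767 also had a Postn UMI. In Dormant 196 were Pi16- or Clec3b-positive, 110 of them with a Postn UMI. Postn was thus not particular to the members, and 3.34% of Postn-positive collagen cells in LT_DT and 23.1% in Dormant had neither Pi16 nor Clec3b.

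The gap between Dormant and LT_DT was not seen when cells were thinned, a step that also made the collagen cut-off stricter. The minimum stayed at 10 UMIs, now out of 1000 per cell. Collagen cells fell from 235 to 122 in Dormant and from 2640 to 2107 in LT_DT. Depth and cut-off therefore cannot be told apart here. With each cell thinned to 1000 UMIs before the rule was applied, members were 12 of 122 Dormant collagen cells (9.84%) and 219 of 2107 LT_DT collagen cells (10.4%). These are partly other cells than the members above, and log2 ratios given below for thinned cells rest on them, so on 12 cells on the Dormant side. Their share of all cells became 0.395% in Dormant, 3.99% in LT_DT, 0.0965% in Primary and 0.0870% in Recurrent. Primary and Recurrent then had 4 such cells each, 4 of 5 collagen cells (80.0%) and 4 of 81 (4.94%). A member's absence of Pi16 and Clec3b is a count of 0 at a median of 2401 UMIs per cell in LT_DT and 4211 in Dormant, against 3716 and 4841 in their Pi16- or Clec3b-positive cells. Free RNA moved with it: 34.0% of Ptprc-positive blood-lineage cells in LT_DT held a Pi16 or Clec3b UMI (median 3407 UMIs), against 7.41% in Dormant (2907 UMIs). The part of free RNA and depth in the share was not tested beyond the thinning.

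The cut-offs were close to many cells. In LT_DT 103 cells met all other conditions but had exactly 1 Pi16 or Clec3b UMI, more than the 61 members, and 34 had 0 Postn UMIs. In Dormant these numbers were 12 and 6. Postn rested on exactly 1 UMI in 14 LT_DT, 6 Dormant and 3 Primary members. Ptprc-positive cells, which should lack Postn, held a Postn UMI in 15.7% of LT_DT and 3.27% of Dormant cells, and at least 10 collagen UMIs in 10.8% and 2.16%.

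**Figure D1:**
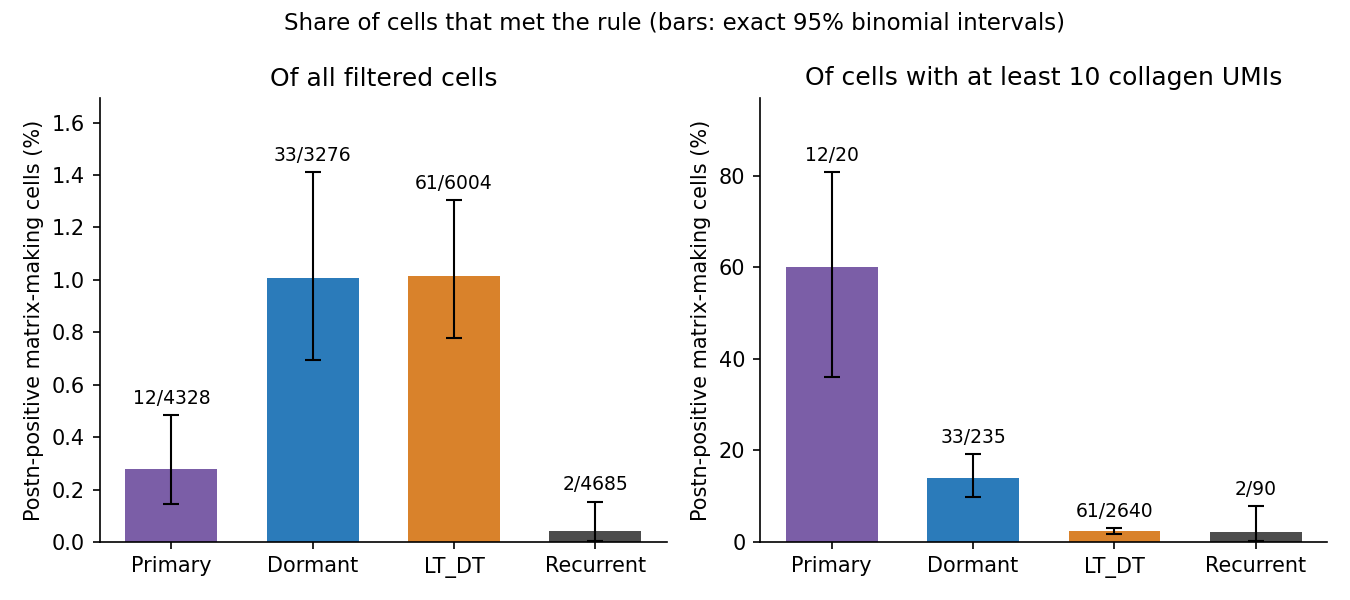
Share of cells that met the rule in each stage library, as a percentage of all filtered cells (left) and of cells with at least 10 collagen UMIs (right), with exact 95% binomial intervals and the counts above each bar. Dormant and LT_DT stand at 1.01% and 1.02% on the left and at 14.0% and 2.31% on the right.

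The members also differed in depth and in how much of their RNA was collagen. Total UMIs per member ran from 2118 to 13018 in Primary (median 6431.5), from 997 to 33530 in Dormant (4211), from 526 to 20314 in LT_DT (2401) and were 6890 and 19727 in Recurrent. The 3 rule collagens gave a median of 31.8 UMIs per 1000 UMIs of the cell in LT_DT (range 7.07 to 88.8), 8.92 in Dormant (4.20 to 20.8), 4.27 in Primary (1.61 to 26.9) and 5.81 and 14.8 in the 2 Recurrent cells. The LT_DT cells reached highest, but their lower part overlapped the Dormant range. Postn gave 1.37 UMIs per 1000 in LT_DT, 0.900 in Dormant, 0.714 in Primary and 0.990 in Recurrent, all medians, and these ranges overlapped widely. Postn lies at chr3:54361109-54391037 on mm10, Col1a1 at chr11:94936224-94953042 and Col3a1 at chr1:45311538-45349706, all on the plus strand, and the counts are summed over each whole gene.

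Across libraries, 392 of 19668 deposited stage cells had a barcode that also occurred in another library, and 0 of the 108 members did. Scrublet, a doublet caller, marked 3 LT_DT members and none elsewhere. It marked 0 of 3276 Dormant cells in all, against 2.28% of LT_DT cells, and the reason was not examined. The 0 in Dormant is therefore not taken as an absence of doublets. The eGFP transgene was seen in 2 of 12 Primary and 3 of 33 Dormant members and in none of the others.

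In Dormant and LT_DT the members carried the markers of fibroblasts. Dcn and Lum, which encode small proteoglycans bound to collagen fibres, were found in 33 of 33 Dormant members each, and in 58 and 54 of 61 LT_DT members. The receptor gene Pdgfra, a general fibroblast marker, was found in 28 of 33 Dormant and 38 of 61 LT_DT members. In Ptprc-positive cells of the same libraries Dcn was found in 9.88% (Dormant) and 28.4% (LT_DT) and Pdgfra in 1.73% and 10.1%. All 6 pericyte markers were at 0 in Dormant, and LT_DT held 3 UMIs of them in 3 cells. Endothelial and adipocyte markers were at 0 in both libraries.

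Most of the 12 Primary members lacked Dcn, Lum and Pdgfra. Of 9 fibroblast markers 8 had a UMI somewhere in the 12 cells, among them Pdpn, Thy1 and Fbln1. Pdgfra was at 0 in all 12, Dcn was found in 3 and Lum in 1. Rgs5, a regulator of G-protein signalling that marks pericytes, was found in 10 of the 12, with 338 UMIs and a level of 4008 CPM (UMIs summed over the members, per 1000000 of their UMIs in all). The channel gene Kcnj8 was found in 7, its partner Abcc9 in 8 and Higd1b in 10. The 6 pericyte markers together had 539 UMIs in 10 cells. Acta2, smooth muscle actin, was found in 12 of 12 with 609 UMIs, or 7221 CPM, against 50.3 CPM in Dormant and 255 in LT_DT. Of the 2 Primary members without Rgs5, 1 had 6948 UMIs, 28 Postn UMIs and 19 UMIs of Dcn, Lum and Pdgfra, and the other had 2118 UMIs and none of these 3 genes. Most Primary members are therefore called Postn-positive collagen cells here, without a fibroblast name, and enter no gene comparison.

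The 2 Recurrent members had Dcn, Lum, Pdgfra and Fbln1 at 0 in both. The other 5 of the 9 fibroblast markers had UMIs, namely the 3 rule collagens, Pdpn and Thy1. Tnc, which encodes tenascin-C, a matrix glycoprotein of remodelling tissue, had 2 UMIs in the shallower and 29 in the deeper cell. Timp1, an inhibitor of matrix proteases, had 70 UMIs over both, or 2629.9 CPM. Postn had 7 and 19 UMIs and the rule collagens 40 and 291. Acta2 had 1 and 23 UMIs, and Rgs5 2 UMIs in 1 cell. With 2 cells no comparison of Recurrent with Dormant was made.

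**Figure D2:**
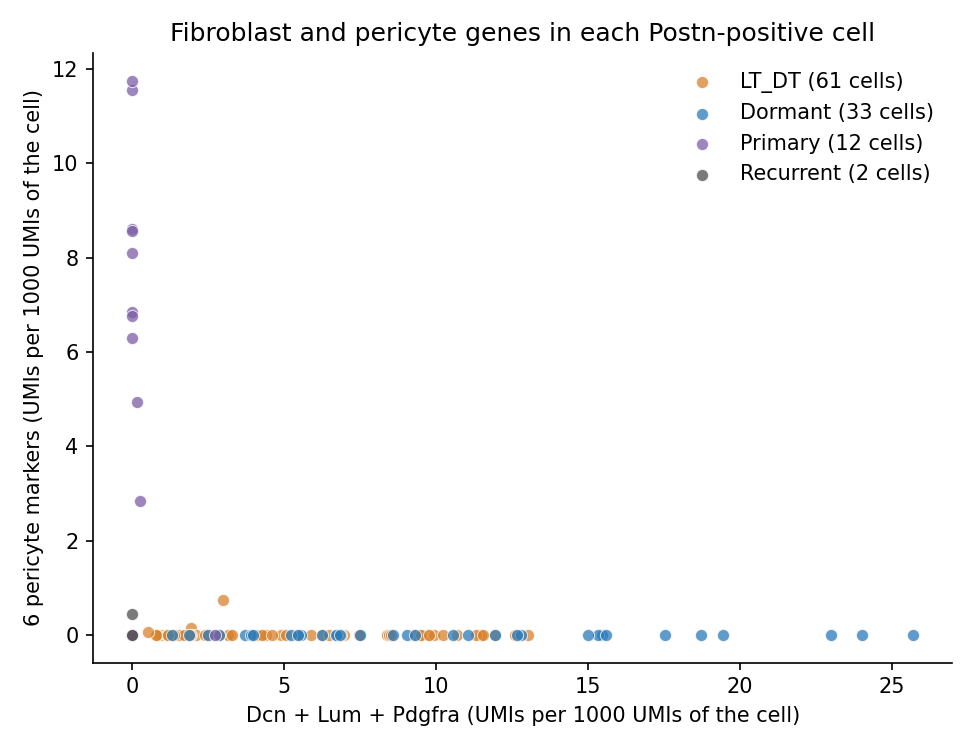
Each point is 1 Postn-positive cell, with the UMIs of Dcn, Lum and Pdgfra on the horizontal axis and of 6 pericyte markers on the vertical axis, both per 1000 UMIs of the cell. Of the Primary cells 10 of 12 lie up the vertical axis, Dormant and LT_DT cells lie along the horizontal axis, and both Recurrent cells lie at 0 on it.

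To compare the fibroblasts of the LT_DT and Dormant mice, UMIs were summed over the 61 LT_DT and 33 Dormant members, 266671 and 198790 UMIs in all. Genes with at least 50 UMIs over both sums were compared, 1225 outside the rule genes. LT_DT members were at least 2-fold higher in 81 genes (6.61%) and at least 2-fold lower in 155 (12.7%), and the median log2 ratio of LT_DT to Dormant over all genes was -0.04. LT_DT members had more mRNA of collagens, of Dpt and Ly6c1 and of Igfbp5, and less of heat shock, interferon, MHC class I, Gadd45 and Btg genes and of Crabp1. When mitochondrial, ribosomal and haemoglobin genes were left out of the totals, the median moved to 0.09 and the counts to 107 higher and 129 lower, or 45.3% of called genes higher against 34.3%. With cells thinned before the rule was applied, 87 of 621 genes were higher and 81 lower, or 51.8% of called genes higher.

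Collagen genes beyond those in the rule were higher in LT_DT members. Of 9 fibrillar and beaded collagen genes measured, 7 were at least 2-fold higher and 0 lower, and the list's median log2 ratio was 1.33. Col5a1, whose protein seeds and limits the width of collagen fibrils, had 174 UMIs in LT_DT (652 CPM, found in 40 of 61 cells) and 20 in Dormant (101 CPM, 13 of 33 cells), a log2 ratio of 2.67 (2.03 to 3.44). Col6a3, a chain of the beaded filaments between fibrils, stood at 1624 against 418 CPM, a log2 ratio of 1.95 (1.62 to 2.32). Both genes were found in a larger share of LT_DT cells, and Col6a3 in 53 of 61. The rule collagens pointed the same way as a description, with Col1a1 at 7504 against 3230 CPM. In thinned cells Col5a1 stood at 0.94 from 4 Dormant UMIs (-0.28 to 3.00), under 2-fold, and Col6a3 at 2.76 from 3 (1.42 to 5.26). Ptprc-positive cells held a Col5a1 UMI in 12.4% of LT_DT and 1.61% of Dormant cells.

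Other matrix genes differed less. Of 11 basement membrane genes 3 were higher, among them Lamc1, a laminin chain (log2 ratio 1.61, 0.82 to 2.57), and Hspg2, which encodes perlecan (1.46, 0.91 to 2.08). Of 11 collagen processing genes 2 were higher, with Adamts2, which trims the ends of procollagen, at 1.92 (1.06 to 2.99). The list medians were 0.19 and 0.07, close to that of all genes. Proteoglycan genes were mixed, with 2 of 4 measured lower, 1 higher and a list median of -0.36. The hyaluronan synthase gene Has1 was higher (1.13, 0.32 to 2.08, and 0.61 without cells of 20000 UMIs or more), and Bgn, which encodes biglycan, stood at 0.48 (0.28 to 0.69). Lower were Dcn, at 1980.0 CPM in LT_DT and 5624 in Dormant (log2 ratio -1.51, -1.66 to -1.36) and Lum at -1.19 (-1.40 to -0.99). Dcn ranged from 0 to 33 UMIs per cell in LT_DT (median 7) and from 2 to 103 in Dormant (median 22), so the cells overlapped. In thinned cells Dcn stood at -0.74 (-1.08 to -0.37) and Lum at -0.62 (-1.06 to -0.11), both under 2-fold.

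Some adventitial genes other than Pi16 and Clec3b had more UMIs in LT_DT members. Only 4 of the 12 reached 50 UMIs over both sums, and Dpt and Ly6c1 did so mostly through LT_DT, so no count or median over the list is given. Dpt, which encodes dermatopontin, had 100 UMIs in 36 of 61 LT_DT cells and 5 in 3 of 33 Dormant cells, a log2 ratio of 3.77 (2.63 to 5.55). The surface protein gene Ly6c1 had 48 UMIs in 26 cells against 3 in 3 cells, a log2 ratio of 3.37 (1.94 to 5.90). At least 1 UMI of the 12 other adventitial genes was found in 50 of 61 LT_DT and 17 of 33 Dormant members, and, with the same members thinned, in 37 of 55 (67.3%) and 11 of 32 (34.4%). Ptprc-positive cells held Dpt in 18.1% of LT_DT and 2.72% of Dormant cells and Ly6c1 in 22.3% and 4.32%, and the part of free RNA in these differences was not tested.

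Igfbp5, a secreted binding protein for insulin-like growth factors at chr1:72857932-72874884 on the minus strand, had 148 UMIs in 33 of 61 LT_DT cells and 1 UMI in 33 Dormant cells, a ratio of 110 with a log2 interval of 4.29 to 12.10. Ptprc-positive cells held an Igfbp5 UMI in 15.7% of LT_DT and 7.35% of Dormant cells. Igfbp5 was a candidate for free RNA in this comparison (over 5 times higher in Ptprc- or Epcam-positive cells). The part of free RNA in the difference was not tested. In thinned cells the log2 ratio was 2.22 (0.67 to 5.59, 2 Dormant UMIs). Within the same family, Igfbp6 was higher in LT_DT (2.44, 1.79 to 3.23) and Igfbp7 (-1.84, -2.02 to -1.67) and Igfbp4 (-1.82, -2.14 to -1.51) were lower.

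At least 1 UMI of Hspa1a, Hspa1b or Dnajb1 was found in all 33 Dormant members and in 30 of 61 LT_DT members. Hspa1a, which encodes an inducible HSP70 chaperone, had 551 UMIs in 32 of 33 Dormant members (2772 CPM) and 24 UMIs in 12 of 61 LT_DT members (90.0 CPM), 30.8-fold lower in LT_DT (log2 ratio -4.92, -5.60 to -4.36). Its co-chaperone gene Dnajb1 stood at -2.78 (-3.35 to -2.27). Hspa1a and Hspa1b are near-identical neighbouring copies, at chr17:34969190-34972156 and chr17:34956436-34959238 on the minus strand, so the split of reads between them is uncertain, and Hspa1b stood at -3.56 (-4.90 to -2.58). In thinned cells Hspa1a stood at -4.14 (-4.94 to -3.34), while Hspa1b had 13 UMIs in LT_DT and 0 in Dormant cells. Over Hspa1a, Hspa1b and Dnajb1 the median cell had 3.65 UMIs per 1000 in Dormant and 0 in LT_DT. Of 14 stress genes of tissue handling, 7 were lower, 1 was higher and the median was -1.07. Hspa1a was also found in 35.5% of Ptprc-positive Dormant cells and 14.7% of those in LT_DT. Whether this was free RNA or Hspa1a made by those cells was not tested.

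Several interferon-induced and antigen-presentation genes were lower in LT_DT members. Of 5 interferon response genes measured 3 reached 50 UMIs through Dormant alone, so no count over that list is given. Cxcl10, a chemokine that draws T cells, had 129 UMIs in 18 of 33 Dormant cells and 6 UMIs in 5 of 61 LT_DT cells, 28.8-fold lower (log2 ratio -4.74, -6.32 to -3.69). Its neighbour Cxcl9 stood at -4.36 (-5.95 to -3.30) and the transcription factor gene Irf1 at -2.89 (-3.76 to -2.17). Dormant cells were uneven: 13 of 33 had no UMI of Cxcl9 or Cxcl10, and 8 had 10 or more. Of 5 MHC class I genes 4 were lower, with H2-D1, a class I heavy chain, at 551 against 4739 CPM (-3.10, -3.36 to -2.85), its partner B2m at -2.39 (-2.55 to -2.23) and H2-K1 at -1.87 (-2.12 to -1.63). H2-D1 and B2m were found in all 33 Dormant members.

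MHC class II genes went the other way, reaching 50 UMIs through LT_DT alone. Immune markers, a list that includes the class II gene Cd74 itself, gave 299 UMIs in 38 of 61 LT_DT members (1121 CPM). They gave 38 UMIs in 17 of 33 Dormant members, with Ptprc at 0 by the rule. Cd74, the class II invariant chain, stood at a log2 ratio of 2.89 (2.27 to 3.64) and at 0.37 without cells rich in immunoglobulin or Cd74. In LT_DT 3 cells held 10 or more Cd74 UMIs. In Pi16- or Clec3b-positive cells of the same libraries Cd74 stood at 1.15, H2-Aa at 1.80 and H2-Ab1 at 0.77. The part of immune RNA in these differences was not tested.

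Gadd45 and Btg genes, listed here as cell cycle inhibitors, and several single genes were also lower in LT_DT. Of 6 cell cycle inhibitors 5 were lower (median -1.41), among them the stress-induced Gadd45b, at 356 against 1429 CPM, and Btg2 (-1.74, -2.17 to -1.33). Gadd45g stood at -1.93 and Btg1 at -1.09. Only 2 proliferation genes were measured and 0 passed 2-fold, and a difference in cell cycle arrest was not tested. Crabp1, a cytoplasmic carrier of retinoic acid at chr9:54764748-54773110 on the plus strand, had 343 UMIs in 29 of 33 Dormant cells and 26 UMIs in 13 of 61 LT_DT cells, a log2 ratio of -4.12 (-4.78 to -3.57). Only 2.04% of Ptprc-positive Dormant cells and 0.722% of those in LT_DT had a Crabp1 UMI. Apod, a lipid-binding lipocalin, stood at -3.92 (-4.61 to -3.34), Id3, an inhibitor of differentiation, at -2.73 (-3.08 to -2.40), and Sfrp1, a secreted Wnt antagonist, at -2.49 (-3.16 to -1.91). Sfrp2, a relative, stood at -0.01 (-0.69 to 0.69), and Sfrp4 had 66 UMIs in 12 LT_DT members, 68.2% of them in 1 cell, and 0 UMIs in Dormant members, at least 16.4-fold higher in LT_DT against a floor of 3 UMIs over the Dormant members. An Sfrp4 UMI was also found in 10.2% of Ptprc-positive LT_DT cells and 1.36% of those in Dormant, so free RNA could be part of it, which was not tested. In thinned cells Sfrp1 stood at -0.05 from 1 Dormant UMI (-2.10 to 5.87). Higher in LT_DT were S100a4, a calcium-binding protein of motile fibroblasts (2.67, 2.22 to 3.19), Cavin1, a caveola coat protein (2.50, 1.82 to 3.33), and the chemokine Ccl7 (3.72, 2.58 to 5.51), the last from 1 Dormant cell and 18 LT_DT cells. Pdgfra did not differ beyond counting error, at 289 and 287 CPM (log2 ratio 0.01, -0.50 to 0.53).

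**Figure D3:**
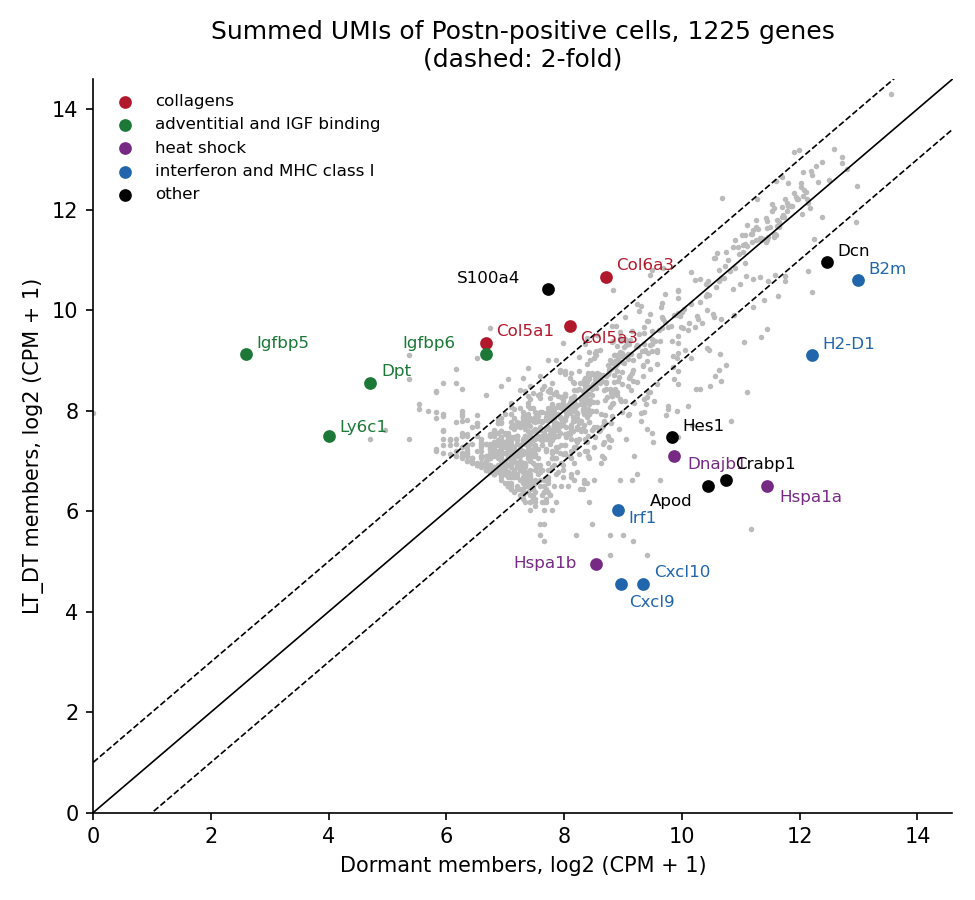
Each point is 1 of 1225 genes, with log2 (CPM + 1) over 33 Dormant members on the horizontal axis and over 61 LT_DT members on the vertical axis, a solid line at equality and dashed lines at 2-fold. Col5a1, Col6a3, Dpt, Ly6c1, Igfbp5 and Igfbp6 lie above the upper dashed line, and Hspa1a, Cxcl9, Cxcl10, H2-D1, B2m, Crabp1 and Apod lie below the lower one.

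The Pi16- or Clec3b-positive fibroblasts of the same 2 libraries showed which of these differences the members shared with their neighbours. The heat shock, interferon and class I differences were there too, with log2 ratios of LT_DT to Dormant in those cells of -4.21 for Hspa1a, -3.40 for Cxcl10, -4.68 for Cxcl9 and -2.60 for H2-D1. Crabp1 stood at -5.90 and Col6a3 at 1.94 in them. List medians, members first, were 1.33 and 1.08 for collagens, -1.87 and -1.74 for MHC class I and -1.41 and -0.87 for cell cycle inhibitors. Dpt, Ly6c1 and Igfbp5 differed by under 2-fold there: Dpt stood at 3.77 in members and 0.29 in those cells (0.20 to 0.38), Ly6c1 at 3.37 and -0.19 (-0.26 to -0.12), and Igfbp5 at 6.21 and 0.24 (0.17 to 0.32). C3, a complement protein, stood at 2.00 in members and -0.68 in the others. These were not tested against each other, and a rule that takes cells with no Pi16 or Clec3b UMI bears on adventitial genes directly.

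Within each library the members were then set beside the Pi16- or Clec3b-positive fibroblasts, 2545 cells in LT_DT and 196 in Dormant. The rule used this contrast, so the values describe how the cells it split apart look and support nothing further. In LT_DT 9143 genes had at least 50 UMIs, of which 843 were at least 2-fold higher in members (9.22%) and 1147 lower (12.5%). In Dormant 2949 genes did, of which 155 were higher (5.26%) and 261 lower (8.85%). Median log2 ratios over all genes were 0.07 and 0.09, and with TMM scaling -0.08 and -0.10. TMM also moved the counts to 632 higher and 1351 lower in LT_DT and to 79 and 319 in Dormant, that is to 31.9% and 19.8% of called genes higher against 42.4% and 37.3%. Calls near 50 UMIs rest on few member UMIs. Over all genes the medians of the lower and upper interval limits were -1.42 and 1.10 in LT_DT and -0.70 and 0.73 in Dormant. In LT_DT 491 genes had 0 UMIs in 1 group. With at least 200 UMIs 182 of 5025 LT_DT genes were higher and 481 lower.

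The members had less of the adventitial genes in both libraries, and many of these reached 50 UMIs through the Pi16- or Clec3b-positive cells alone, so no count over the list is given. In LT_DT Sema3c, a secreted guidance protein, had 4 UMIs in members (log2 ratio -3.86, -5.91 to -2.68), Anxa3, an annexin, stood at -3.24 (-4.37 to -2.43) and Ly6c1 at 180 against 1469 CPM (-3.01, -3.47 to -2.62). In Dormant members Sema3c, Anxa3 and the chemokine scavenger Ackr3 had 0 UMIs. Against a floor of 3 UMIs over the members they were at least 18.9-fold, 29.7-fold and 15.9-fold lower than in the Pi16- or Clec3b-positive cells. Ly6c1 had 3 UMIs in Dormant members (-6.57, -9.07 to -5.25).

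Some complement, IGF binding and elastic fibre genes were lower in members of both libraries. Of 5 IGF binding proteins 3 were lower and 0 higher in each library. Among all measured genes 12.5% were lower in LT_DT and 8.85% in Dormant. A gene could reach the UMI minimum through the Pi16- or Clec3b-positive cells alone, as Igfbp5 did in Dormant. The counts for this list and for the elastic fibre list are therefore descriptions only. C3 stood at -2.38 (-2.78 to -2.03) in LT_DT and -5.06 (-6.12 to -4.28) in Dormant, and C4b at -2.19 and -3.01. Igfbp6 stood at -2.05 and -3.97, and Igfbp5 at -1.59 and -7.55, the latter from 1 UMI (interval -13.44 to -5.66). Of the elastic fibre list 8 of 16 measured genes were lower and 2 higher in LT_DT, and 8 of 14 lower and 1 higher in Dormant. Emilin1, an elastic fibre glycoprotein gene, was higher in both (1.38 and 1.43, but 0.82 in Dormant without cells of 20000 UMIs or more and 0.49 in thinned LT_DT cells). Among the lower genes was Eln, which encodes elastin, at -1.84 and -1.83. The proteoglycan Ogn (osteoglycin) stood at -2.89 and -5.42, the fibril-associated collagen Col14a1 at -1.90 and -2.90, the TGF-beta receptor gene Tgfbr2 at -2.29 and -2.44, and the protease inhibitor Timp2 at -1.65 and -2.13. In thinned LT_DT cells, which the rule then re-sorted, Eln stood at -0.04, Tgfbr2 at -0.28, Igfbp5 at -0.47, Timp2 at -0.85 and Igfbp6 at -0.87.

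Genes of contraction, the cell cycle and glycolysis were higher in LT_DT members. Of 17 contractile genes 10 were higher and 0 lower (median 1.09), of 15 proliferation genes 11 and 0 (1.39), and of 12 hypoxia and glycolysis genes 9 and 0 (1.13). Actn1, which crosslinks actin, stood at 2.32 (1.78 to 2.80), and Acta2 at 3.53 (3.11 to 3.92) from 13 of 61 cells. Mcm6, a DNA replication helicase subunit, stood at 2.46 (1.28 to 3.36) on 10 UMIs in 4 member cells. Mif, a cytokine with enzyme-like activity, stood at 1.82 (1.63 to 2.00) and the glycolytic Pgk1 and Eno1 at 1.57 and 1.51. After thinning Mif stood at 0.50, Pgk1 at 0.55 and Eno1 at 0.46. In Dormant members 7 of 9 glycolysis genes were higher (1.28), with 65 of 82 Pgk1 UMIs and 106 of 116 Eno1 UMIs in 2 deep cells. Contractile genes were mixed there, 1 higher and 2 lower of 9, and 0 of 3 proliferation genes passed 2-fold.

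A few genes of the matrix and the cell surface were higher in members. Tnc stood at 4.02 (3.37 to 4.61) in LT_DT, where 12 of 61 members held it. In Dormant it stood at 3.99 (3.23 to 4.87), but 4 of 33 members held it and 2 deep cells had 55 of its 57 UMIs. Without cells of 20000 UMIs or more on either side 2 UMIs were left in members and 5 in the other cells, a log2 ratio of 1.67 whose interval reached from -1.91 to 4.10. F2r, a thrombin receptor, stood at 2.35 (1.66 to 2.93) in LT_DT and 1.83 (1.17 to 2.47) in Dormant, and Sdc1, a heparan sulphate proteoglycan, at 2.20 (1.77 to 2.58) and 1.01 (0.50 to 1.48). Runx2, a transcription factor of bone and matrix-forming cells, stood at 2.13 (1.40 to 2.74) in LT_DT. Dormant members also had more Col18a1, whose cleaved end is endostatin (1.10, 0.69 to 1.49, found in 27 of 33 cells), Col13a1, a transmembrane collagen (1.90, 1.15 to 2.62), Tcf4, a transcription factor (1.05, 0.67 to 1.41), and Id1 (2.18, 1.51 to 2.84). Against only those Pi16- or Clec3b-positive cells that held Postn, Col18a1 stood at 0.61, Tcf4 at 0.81 and Sdc1 at 0.52, and with TMM scaling at 0.91, 0.87 and 0.82. F2r was also found in 16.4% of Ptprc-positive Dormant cells, against 19 of 33 members.

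Over 2939 genes measured in both libraries, 99 were higher in LT_DT members and 148 in Dormant members, and 45 were higher in both, 45.5% of the first list and 30.4% of the second. Lower genes numbered 241 and 260 with 144 in both, 59.8% and 55.4%. Only 5 genes passed 2-fold in opposite directions. Both contrasts follow the same rule, so this overlap is a description.

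**Figure D4:**
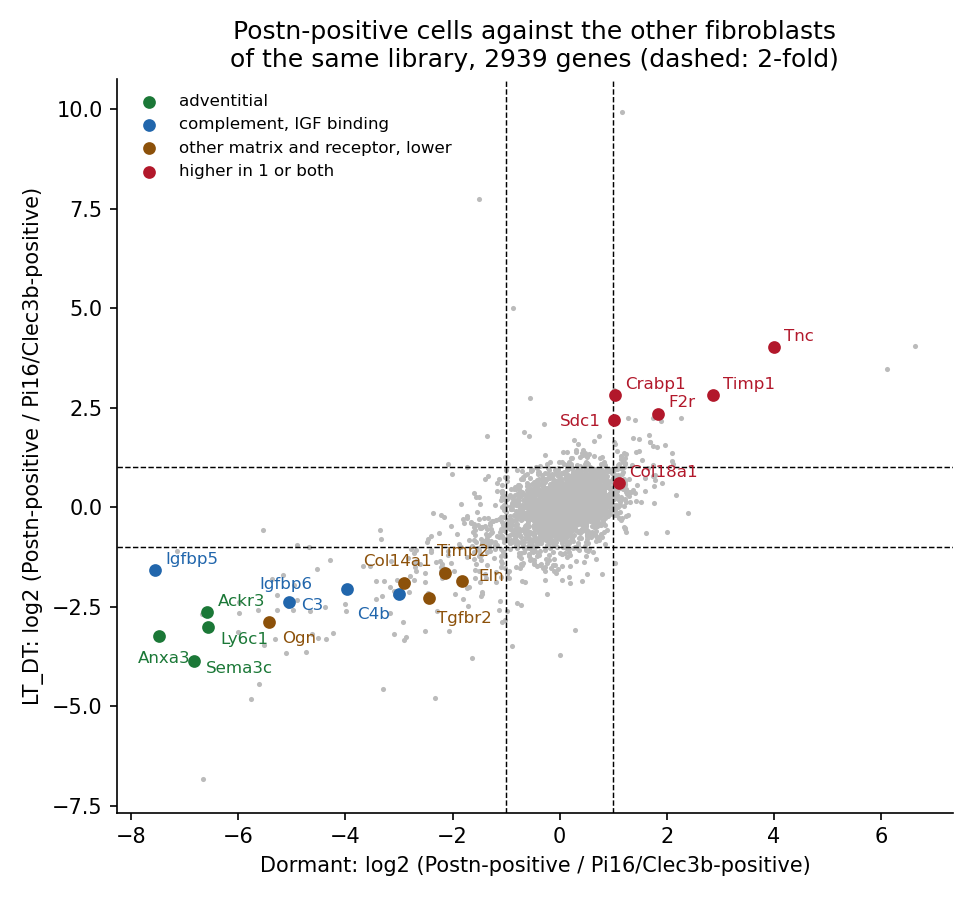
Each point is 1 of 2939 genes, with the log2 ratio of members to Pi16- or Clec3b-positive fibroblasts of Dormant on the horizontal axis and of LT_DT on the vertical axis, and dashed lines at 2-fold. Adventitial genes, C3 and C4b lie at the lower left and Tnc, Timp1, F2r and Sdc1 at the upper right, and genes with 0 UMIs in 1 group, such as Anxa3, Sema3c and Ackr3 in Dormant members, are placed by a prior of 0.5 UMIs and not by a measured ratio.

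Some of the Dormant values rested on 2 very deep cells. These cells, of 22770 and 33530 UMIs, held 28.3% of all UMIs of the 33 Dormant members. They held 362 of 363 UMIs of Saa3, an acute-phase protein, 139 of 144 of Spp1 (osteopontin), 55 of 57 of Tnc and 210 of 244 of Timp1. Of Dcn they held 83 of 1118 UMIs and of Hspa1a 40 of 551. Without cells of 20000 UMIs or more in either library the log2 ratio of LT_DT to Dormant turned from -3.03 to 4.52 for Saa3, from -2.12 to 2.19 for Spp1 and from -1.20 to 2.62 for Tnc, the last from 26 and 2 UMIs (0.91 to 6.03). In Dormant against the Pi16- or Clec3b-positive cells Timp1 moved from 2.86 to 0.66 and Pgk1 from 1.96 to 0.39. Among the other 31 Dormant members Tnc was found in 2, Spp1 in 2 and Timp1 in 16. The 1 LT_DT member above 20000 UMIs held 7.62% of its library's member UMIs, 44 of 252 Timp1 and 7 of 33 Tnc UMIs. In 1 Dormant member of 5625 UMIs 1122 were immunoglobulin, and in 1 LT_DT member of 15732 UMIs 2583 were.

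**Figure D5:**
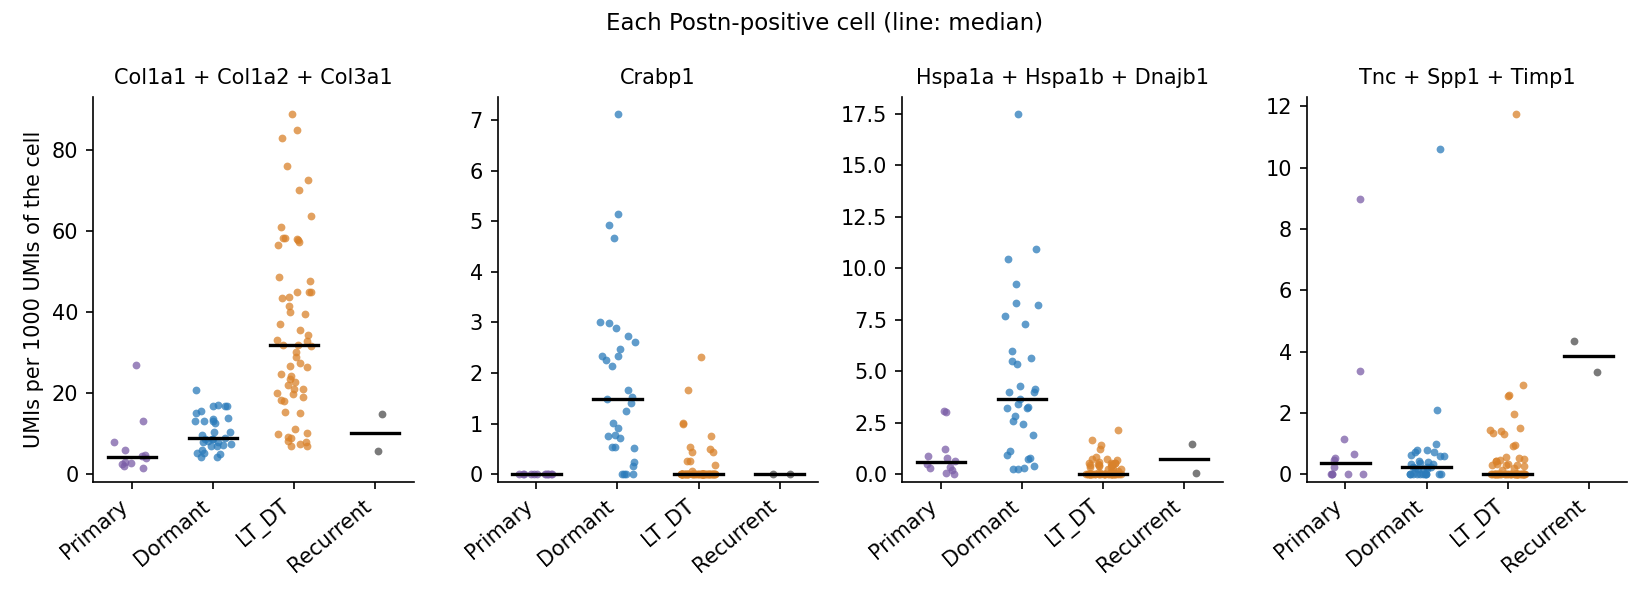
UMIs per 1000 UMIs of the cell for the 3 rule collagens, Crabp1, 3 heat shock genes, and Tnc, Spp1 and Timp1 together, with 1 point per Postn-positive cell and a line at each library's median. LT_DT cells are highest for collagen, Dormant cells for Crabp1 and heat shock genes, and in the last panel single Primary, Dormant and LT_DT cells lie far above the rest of their library.

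Notch genes were near the limit of detection in the members. All UMIs of the members summed to 84338 in Primary, 198790 in Dormant, 266671 in LT_DT and 26617 in Recurrent. The raw counts below therefore do not compare levels between libraries. Jag1, the ligand the study's antibody binds, had 8 UMIs in Primary, 8 in Dormant, 6 in LT_DT and 6 in Recurrent members. Notch2 had 4, 8, 11 and 2 UMIs and Notch1 had 1, 5, 5 and 0 in the same order. Notch3, a receptor of mural cells, had 19 UMIs in 8 of 12 Primary members, 3 in Dormant, 5 in LT_DT and 0 in Recurrent. Of 13 Notch pathway genes, Hes1, a transcriptional repressor that Notch and other signals induce, was the only one with at least 50 UMIs over LT_DT and Dormant. It had 180 UMIs in 21 of 33 Dormant cells (905 CPM) and 47 in 27 of 61 LT_DT cells (176 CPM), a log2 ratio of -2.35 (-2.86 to -1.89), against -1.02 in Pi16- or Clec3b-positive cells.

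Among 55 LT_DT members with at least 1000 UMIs, all thinned to that depth, the genes whose levels ran most closely with Postn out of 2844 were Oaf (Spearman rho 0.54), the laminin chain Lamb1 (0.52), the spectrin Sptbn1 (0.52), Igfbp4 (0.46), Junb (0.46), Crabp1 (0.42), Mfap4 (0.41), Egr1 (0.41), Col4a1 (0.40) and Lama2 (0.39). The cells share 1 library and most counts are 0 or 1, so these values are a description. Oaf, Lamb1 and Sptbn1 stood ahead of the rest by less than 0.1.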

How the data were processed

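The deposited table held whole-number counts of UMIs per gene and cell for 4 stage libraries, made by the authors with Cell Ranger 3.1.0 on mm10, per the submitters' processing notes. Doublet removal and ambient RNA correction before deposit were not given in the sources used here. Barcodes were used as deposited, with 10000 cells targeted per library and Chromium 3' kit version 2 for stages and 3 for antibody groups. Members and the 26 gene lists were chosen with earlier results of these data known.

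Raw counts were summed over cells per library, and a gene was called at 2-fold or more with at least 50 UMIs over both sums, rule genes left out. Log2 ratios used a prior of 0.5 UMIs, with exact conditional Poisson 95% intervals, and shares had exact Clopper-Pearson intervals. Per-cell values were also taken after thinning to 1000 UMIs. Genes were named by rule: up to 4 per list with the largest absolute log2 ratio, and up to 10 in each direction outside the lists at 50 CPM or more. Lists covered 398 genes, 3 of them not in the table. A gene over 5 times higher in Ptprc- or Epcam-positive cells was a candidate for free RNA, which includes Igfbp5, Acta2, Cd74, H2-Aa and H2-Ab1 as compared between LT_DT and Dormant. The code was tested on simulated data. Tools were Python 3.11.15, numpy 2.4.6, scipy 1.17.1, pandas 2.3.3, scanpy 1.11.5 (Scrublet), matplotlib 3.10.9, R 4.3.3 and edgeR 4.0.16 (TMM factors only). The tally of the complement list is not reported here.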

Additional observations from a re-analysis of the deposited data

How the results depend on the processing

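With 1 library per group there was no replicate to leave out and no test, so every value below is a description of these libraries, and intervals cover counting error only. No paired analysis was possible because each group has 1 library and no replicate numbers are shared. Recurrent against Dormant was not run, with 2 Recurrent members. Members had a median of 2401 to 13308.5 UMIs, and a count of 0 in a cell is a limit of detection at that depth.

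Thinning moved the shares, with the collagen minimum kept at 10 UMIs. After thinning to 1000 UMIs, members were 0.0965% of cells in Primary, 0.395% in Dormant and 3.99% in LT_DT, and 9.84% of collagen cells in Dormant and 10.4% in LT_DT. For LT_DT against Dormant, 87 of 621 genes were higher and 81 lower after thinning. That is 51.8% of called genes higher against 34.3% as reported. Of these, 32 higher and 41 lower genes were also among the 81 higher and 155 lower genes reported. With at least 20 UMIs 230 of 2872 were higher and 362 lower, and with at least 200 these were 13 and 50 of 314. Within LT_DT 99 of 4240 genes were higher and 183 lower after thinning. With at least 200 UMIs these were 182 and 481 of 5025, and against Pi16- or Clec3b-positive cells without Postn 342 and 600 of 5191. Also within LT_DT 1322 of 9143 were higher with each cell given equal weight and 1467 of 10840 with at least 20 UMIs. Without candidates for free RNA 537 of 8239 were lower. Within Dormant the higher and lower counts were 12 and 31 of 284 after thinning, 461 and 559 of 5685 with at least 20 UMIs. They were 27 and 84 of 831 with at least 200, and 76 and 163 of 2171 against Pi16- or Clec3b-positive cells with Postn. There 79 of 2949 were higher with TMM, and 152 of 1456 were lower against such cells without Postn. For LT_DT against Dormant, Saa3 turned to 3.15 and Spp1 to 2.41 without the deepest cell, and Saa3 to 4.52, Spp1 to 2.19 and Tnc to 2.62 without cells of 20000 UMIs or more, since 2 Dormant cells held nearly all their Dormant UMIs. Hspa1b turned to 0.57 in thinned cells, from 13 LT_DT UMIs and 0 Dormant UMIs. The cause of the moves with TMM, equal weight and the comparison cells was not tested.

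Of 43 named genes past 2-fold between LT_DT and Dormant, 32 stayed past it in the same direction under every alternative run. Under all but thinning 37 did. Within LT_DT 15 and 26 of 29 named genes did so, and within Dormant 18 and 19 of 26. The genes called at 2-fold numbered 236, 1990 and 416 in the same order. Named genes were mostly picked for large ratios, so these counts do not describe all called genes. Values under 50 UMIs are included, 52 in all, and several of these rest on so few UMIs that their intervals include 0, as for Tnc within Dormant. No called list median reversed under the alternatives run, and 85 of the recomputed medians moved while 1328 did not. The removal of immunoglobulin- or Cd74-rich cells, deep cells or shallow cells, and of Pi16- or Clec3b-positive cells by Postn, was chosen after seeing the data.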
